A study of Mus musculus with 12 samples.

Results

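The MHC class II genes were examined in RNA-Seq data of proximal colon, from 6 APC Min/+ and 6 wild type (WT) mice. The set held 10 genes chosen by name, H2-Aa, H2-Ab1, H2-Eb1, H2-Eb2, H2-DMa, H2-DMb1, H2-Oa, H2-Ob, Cd74 and Ciita, out of 38924 genes counted in each mouse. All 10 were found in the tables by their Ensembl identifiers, and all 10 were among the 20311 genes that reached 10 counts in 3 or more mice. All mice were female, on the C57BL/6 background, untreated and 6 weeks old, and each library came from 1 mouse. The study chose this age to precede polyposis. APC Min/+ mice carry a germline nonsense mutation in 1 allele of Apc in every cell, so the genotype is not confined to the epithelium. The genotypes were housed in separate cages, so cage and genotype cannot be told apart. The tissue is labelled as mucosa, but the methods describe a section of colon, and transcripts of smooth muscle (Acta2, Myh11, Des, Actg2, Cnn1 and Tagln summed) reached 4391 to 6959 CPM (a gene's counts scaled to a common library total) in the APC Min/+ mice and 4636 to 5841 CPM in the WT mice. In such bulk RNA, fewer cells of a type and less RNA per cell cannot be told apart.

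MHC class II molecules are surface heterodimers of an alpha and a beta chain that present peptides from the endocytic pathway to CD4+ T cells. In mice the classical molecules are H2-A, made from H2-Aa and H2-Ab1, and H2-E, of which H2-Eb1 encodes the beta chain, and mice of the C57BL/6 haplotype do not make the E alpha chain. Cd74 encodes the invariant chain, which occupies the groove during transport, H2-DM (H2-DMa and H2-DMb1) exchanges its remnant for peptide, and H2-O (H2-Oa and H2-Ob) restrains H2-DM, mainly in B cells. Ciita encodes the coactivator that docks onto RFX, CREB and NF-Y at the S, X and Y boxes of class II promoters. Dendritic cells, macrophages and B cells carry class II constitutively, and interferon gamma induces it in other cells, including the intestinal epithelium.

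All members but 2 lie in the class II region of chromosome 17 (GRCm38, GENCODE M21), from H2-Oa at chr17:34092340-34095234 to H2-Eb2 at chr17:34325665-34341412. Cd74 and Ciita lie on other chromosomes. RefSeq promoter windows (build GRCm38.p6, the 250 bases before each annotated start) were available for 7 members, and were searched on both strands for the letters GNAAC, as in the X box, followed after 10 to 35 bases by ATTGG, as in the Y box. This pattern was chosen after the sequences had been looked at, and a match is a description of the letters, not a tested binding site. The pair of motifs was present in 6 of the 7 members and in 3.60% of all 32851 windows. It was in H2-Aa, H2-Eb1, H2-Eb2, H2-Ob, H2-Oa and H2-DMb1, on the strand of the gene in each, and not in either of the 2 windows of H2-DMa. The stretches of 4 members are printed below 5′ to 3′ with the X letters and the Y letters in capitals, to show the letters that genes of very different levels have in common. These are the 4 of the 6 stretches that do not reach an annotated exon, and those of H2-Oa and H2-DMb1 are not shown.
H2-Aa, chr17:34287852-34287919, reverse strand: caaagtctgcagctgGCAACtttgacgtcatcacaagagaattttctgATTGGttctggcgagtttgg
H2-Eb1, chr17:34305761-34305827, forward strand: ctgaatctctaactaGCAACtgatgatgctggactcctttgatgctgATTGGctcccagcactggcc
H2-Eb2, chr17:34325528-34325594, forward strand: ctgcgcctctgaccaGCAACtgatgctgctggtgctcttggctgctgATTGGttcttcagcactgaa
H2-Ob, chr17:34238803-34238867, forward strand: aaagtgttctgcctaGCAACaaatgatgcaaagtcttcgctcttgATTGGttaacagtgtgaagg
The capitals read GCAAC in all 4, and they were separated from ATTGG by 28 bases in H2-Aa, 27 in H2-Eb1 and H2-Eb2, and 25 in H2-Ob. The first capital lay 81, 91, 132 and 87 bases before the annotated start in H2-Aa, H2-Eb1, H2-Eb2 and H2-Ob. H2-Eb1 and H2-Eb2 shared 43 of 67 bases of these stretches (64.2%), although the level of H2-Eb2 was far below that of H2-Eb1. The letters fixed by the searched pattern count among the 43, and no other pair of stretches was compared in this way. The Y letters alone occurred in 33.8% of all windows, so they are not particular to class II genes.

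The total count on genes was 81730206 to 197914821 in the APC Min/+ mice and 50313805 to 117477400 in the WT mice, where 3 counts were worth 0.0152 to 0.0596 CPM. Class II transcripts were between 0.0205% and 0.0420% of all counts in a library. The libraries M10_2 and M13_1, both from APC Min/+ mice, stood apart from the other 10. The posterior homeobox genes Hoxb13 and Hoxd13, which mark the distal colon, reached 275 to 378 CPM and 12.4 to 209 CPM in these 2 libraries, and at most 0.744 and 0.533 CPM elsewhere. Results that rest on them are given with and without them. No sequencing batch is given in the labels. The study divides its mice into shipments by mouse number, but the labels do not state a shipment and do not say how names such as M13_1 or M2_A relate to those numbers, so no comparison within shipments was made.

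No class II gene passed the test for a difference between the genotypes. By the quasi-likelihood test of edgeR, adjusted by Benjamini-Hochberg, 0 of the 10 passed an FDR of 0.05 with at least a 2-fold change, and among all 20311 genes the share called was 0%. Without adjustment, p was under 0.05 for 0 of the 10 members, against 5.27% (1071) of all genes tested. DESeq2 called 27 genes and edgeR's likelihood ratio test called 15 by the same thresholds, and in both the number of class II genes among them was 0. The log2 fold changes (APC Min/+ against WT) of the members ran from -0.22 to 0.89 with a median of 0.165, beside a median of -0.0077 over all genes. Of the 10 estimates 7 were above 0 and 3 below, beside 9837 above and 10474 below among all genes. That split rested on M13_1, since 4 were above 0 and 6 below without it (median -0.05), and 3 above and 7 below without M10_2 and M13_1 (median -0.07). The values of the 2 genotypes overlapped for every member.

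Levels were compared between genes in RPKM, which is CPM divided by the exonic length in kilobases. They fell into 3 tiers. Cd74 was the highest at 70.3 ± 19.2 RPKM (SD, n = 12), followed by H2-Aa at 49.5 ± 15.5 (SD, n = 12), H2-Eb1 at 47.4 ± 11.9 (SD, n = 12) and H2-Ab1 at 26.6 ± 6.09 (SD, n = 12). These 4 made up 93.0% to 95.5% of the summed RPKM of the members in each mouse. H2-DMb1 and H2-DMa formed the middle tier at 4.37 ± 1.18 and 3.74 ± 0.719 RPKM (SD, n = 12). H2-Ob, H2-Oa, Ciita and H2-Eb2 were all under 1 RPKM on average, at 0.859 ± 0.749, 0.726 ± 0.405, 0.664 ± 0.227 and 0.323 ± 0.365 RPKM (SD, n = 12). Neighbours in this order overlapped in range over the 12 mice except at the step from H2-Ab1 to H2-DMb1. Within mice, Cd74 was above H2-Aa in 10 of 12 and H2-Eb1 was above H2-Ab1 in 12 of 12, whereas H2-Aa was above H2-Eb1 in 7 and H2-Ob above H2-Oa in 5, so the order of the latter pairs was not stable.

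**Figure D1:**
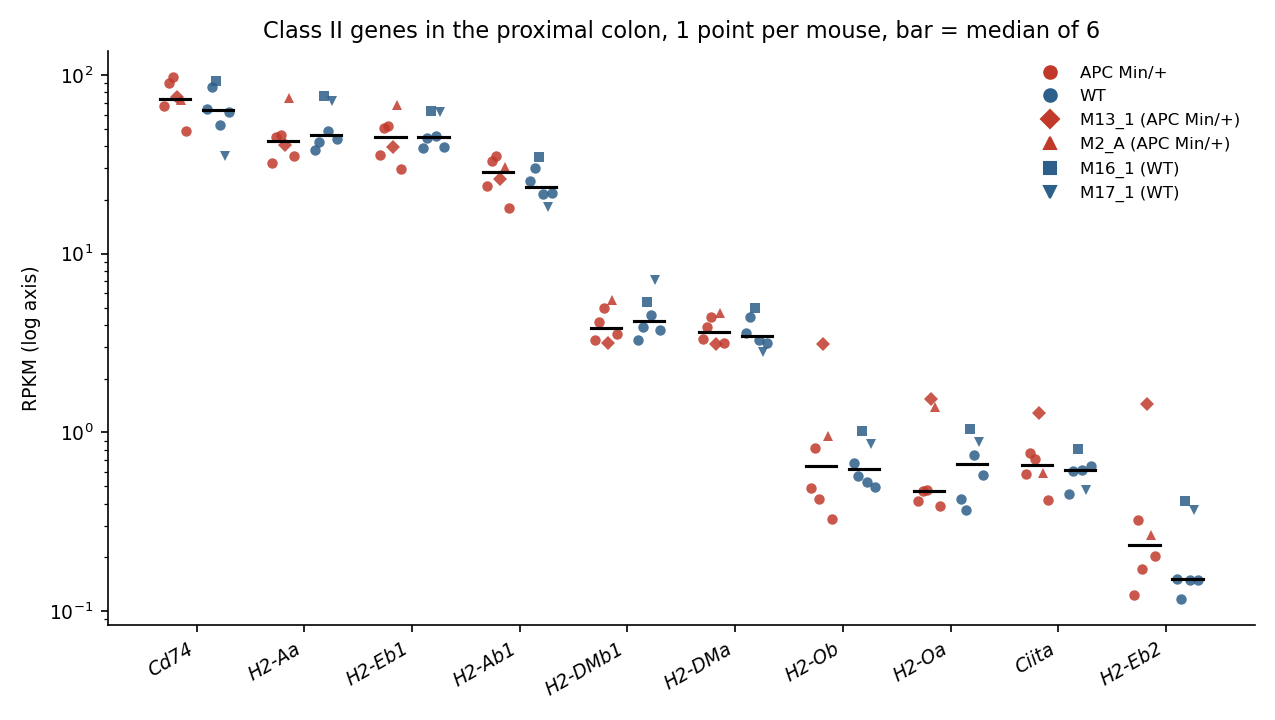
Level of each class II gene in RPKM (log axis), 1 point per mouse, red for APC Min/+ and blue for WT, with black bars at the median of 6 mice; M13_1, M2_A, M16_1 and M17_1 have their own symbols. The genotypes overlap in every gene, M13_1 is the highest point for H2-Ob, H2-Oa, Ciita and H2-Eb2, and M17_1 is among the highest for H2-Aa but the lowest for Cd74.

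The classical alpha chain gene H2-Aa was counted at 60.3 CPM at the lowest, 80.4 at the median and 140 at the highest in the APC Min/+ mice, and at 71.7, 86.5 and 143 CPM in the WT mice. The high values were those of 1 APC Min/+ mouse (M2_A) and 2 WT mice (M16_1 and M17_1), and the others of both genotypes lay close together. On the log2 scale the estimate of APC Min/+ against WT was -0.22 (standard error 0.23, FDR = 0.91, edgeR). Its beta chain partner H2-Ab1 ranged from 29.6 through a median of 46.6 to 57.8 CPM in the APC Min/+ mice, and from 29.98 through 38.9 to 56.7 CPM in the WT mice. The estimate for H2-Ab1 had the other sign, 0.13 (standard error 0.18, FDR = 0.912), and M17_1, high in H2-Aa, was the lowest WT mouse here.

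H2-Eb1, the beta chain gene of H2-E, was counted at 35.3, 52.9 and 80.1 CPM (lowest, median and highest) in the APC Min/+ mice and at 46.0, 53.2 and 73.9 CPM in the WT mice. Again M2_A, M16_1 and M17_1 were the 3 highest, and the estimate for H2-Eb1 was -0.10 (standard error 0.20, FDR = 0.932, edgeR). The E alpha gene, annotated under the symbol H2-Ea-ps, had 0 counts in every mouse. H2-Eb2, a second E beta gene, reached 0.272, 0.518 and 3.18 CPM in the APC Min/+ mice and 0.260, 0.334 and 0.908 CPM in the WT mice, with only 18 to 288 counts behind a value. The highest value, in M13_1, was more than 3 times that of any other mouse, and the estimate of 0.89 (standard error 0.59, FDR = 0.908) became -0.05 without M13_1.

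Cd74, on chromosome 18 (60803848 to 60812652, GRCm38), was counted at 68.2, 104 and 138 CPM in the APC Min/+ mice and at 49.9, 89.3 and 131 CPM in the WT mice. The highest mice were M18_2b (APC Min/+) and M16_1 (WT), the lowest was M17_1, and the estimate was 0.20 (standard error 0.22, FDR = 0.911, edgeR). Of the H2-DM genes, H2-DMa lay between 5.12 and 7.61 CPM in the APC Min/+ mice and between 4.60 and 8.199 CPM in the WT mice, the narrowest range of the 10 members at 1.78-fold from lowest to highest. H2-DMb1 lay between 4.65 and 8.10 CPM in the APC Min/+ mice and between 4.84 and 10.5 CPM in the WT mice, with M17_1 at the top. Their log2 fold changes were 0.02 (standard error 0.17) and -0.18 (standard error 0.21). Of the 100-base windows of the longest H2-DMb1 transcript, 13.7% also occur in H2-DMb2, so reads there could be assigned to either gene or dropped.

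The H2-O genes and Ciita had the same mouse at the top. H2-Ob was counted at 1.03, 2.05 and 9.88 CPM (lowest, median and highest) in the APC Min/+ mice and at 1.57, 1.96 and 3.20 CPM in the WT mice. The value of 9.88 CPM was that of M13_1, and the other 11 mice lay between 1.03 and 3.20 CPM. The log2 fold change of 0.56 (standard error 0.49, FDR = 0.91, edgeR) turned to -0.20 without M13_1. H2-Oa was counted at 0.511, 0.619 and 2.01 CPM in the APC Min/+ mice and at 0.481, 0.870 and 1.38 CPM in the WT mice. The highest mice were M13_1 and M2_A, the other 4 APC Min/+ mice lay near the bottom, and the estimate of 0.20 (standard error 0.41) became -0.12 without M13_1. H2-Oa overlaps the exons of BC051537 on the opposite strand over 321 of 1407 bases, and the strand setting of the counting is not given, so part of its counts could belong to that gene. The same limit may hold for Ciita, which overlaps exons of Dexi on the opposite strand over 329 bases, and for H2-DMa, which overlaps Brd2 over 360 bases. These overlaps were measured on GENCODE M21 exons, 9535 bases for Ciita and 3448 for H2-DMa. The deposited exonic lengths are 5254 and 1641, so the shared bases may lie in exons that were not counted.

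Ciita, on chromosome 16 (10480059 to 10528418, GRCm38), was counted at 2.20, 3.44 and 6.71 CPM in the APC Min/+ mice and at 2.39, 3.23 and 4.26 CPM in the WT mice. M13_1 was the highest at 6.71 CPM, the other 11 mice lay between 2.20 and 4.26 CPM, and the genotypes overlapped. Its estimate was 0.27 on the log2 scale (standard error 0.24, FDR = 0.91, edgeR), 0.03 without M13_1 and -0.06 without both M10_2 and M13_1. Counts per gene do not tell apart the promoters from which Ciita is transcribed in different cell types.

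Other genes of the pathway were taken from 5 lists of 45 genes in all, of which 42 were tested and 0 passed, by edgeR's quasi-likelihood test, its likelihood ratio test or DESeq2. The number with an unadjusted p under 0.05 was also 0. Of the 7 genes of the class II enhanceosome, the median log2 fold change was -0.01, and Rfx5, the DNA-binding subunit of RFX, was counted at a median of 21.9 CPM in the APC Min/+ mice and 23.7 CPM in the WT mice (-0.10, standard error 0.08). Rfxank, another RFX subunit, had the lowest p-value of this list (0.20, standard error 0.14, FDR = 0.908, edgeR). On the interferon gamma axis the 8 genes tested had a median of 0.05. Ifng itself was below the filter with 0 to 16 counts per mouse. Its receptor chain Ifngr1 stood at 0.19 (standard error 0.14), and Irf1, a transcription factor induced by interferon gamma, at 0.10 (standard error 0.10).

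Of the 10 tested genes of class II loading and turnover 2 had estimates above 0 and 8 below, with a median of -0.08. Ctss, the protease that trims the invariant chain, stood at medians of 313 CPM in both genotypes, Ctsd, a lysosomal protease, at -0.21 (standard error 0.17), and H2-DMb2, the neighbouring copy of H2-DMb1, at 0.30 (standard error 0.36) and -0.14 without M13_1. The 11 class I genes had a median of -0.06, with B2m, the light chain of class I, at -0.31 (standard error 0.22), Nlrc5, the class I counterpart of Ciita, at -0.24 (standard error 0.23), and Erap1, a peptide-trimming protease, at -0.19 (standard error 0.11). Of 6 co-stimulation genes 3 were above 0 and 3 below, and Cd40 had the lowest p-value at 0.34 (standard error 0.19, FDR = 0.908, edgeR).

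Whether the class II genes followed their coactivator was asked by correlating each of the other 9 with Ciita over the 12 mice, on log2(CPM + 0.1). After Benjamini-Hochberg adjustment over the 9, 0 passed 0.05. The 4 largest coefficients were those of H2-Ob (r = 0.730, permutation p = 0.0131, adjusted p = 0.0926; rho = 0.441, p = 0.153), H2-Eb2 (r = 0.696, permutation p = 0.0206, adjusted p = 0.0926; rho = 0.392, p = 0.209), Cd74 (r = 0.585, permutation p = 0.0473, adjusted p = 0.140; rho = 0.692, p = 0.0161) and H2-Oa (r = 0.532, permutation p = 0.0707, adjusted p = 0.140; rho = 0.510, p = 0.0941). H2-Ab1 was next (r = 0.523, permutation p = 0.0780; rho = 0.636, p = 0.0308). H2-DMa, H2-Eb1, H2-Aa and H2-DMb1 lay between -0.159 and 0.200.

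These coefficients changed when mice were left out. Without M13_1 and M20_1, the mice farthest from the median of Ciita, r fell to 0.0176 for H2-Ob, 0.263 for H2-Eb2 and 0.0728 for H2-Oa, so these 3 relations rested on those mice. For Cd74 and H2-Ab1 r was 0.725 (permutation p = 0.0171) and 0.677 (permutation p = 0.0334) without the same 2 mice. Without M13_1 alone Cd74 and H2-Ab1 passed the adjustment, at r = 0.757 and 0.761 (adjusted permutation p = 0.0338 for both), and the r of H2-DMa went from 0.200 to 0.624 (adjusted permutation p = 0.130). H2-Eb1 and H2-Aa were then at 0.464 and 0.303. Without M10_2 and M13_1 the r was 0.725 for Cd74, 0.729 for H2-Ab1 and 0.647 for H2-DMa (permutation p = 0.0172, 0.0186 and 0.0472). Without M17_1 alone H2-Ob and H2-Eb2 passed, at 0.808 and 0.803 (adjusted permutation p = 0.0332 for both). Within genotypes, the r of Cd74 with Ciita was 0.578 in APC Min/+ and 0.649 in WT mice, and that of H2-Ab1 was 0.462 and 0.604 (exact permutation p = 0.169 or more for these 4, n = 6 each). The r of H2-Ob was 0.873 in APC Min/+ mice (exact permutation p = 0.0347, n = 6) and 0.102 in WT mice (exact permutation p = 0.824, n = 6), and the difference between the genotypes was not tested.

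Of 14898 tested genes with a mean of at least 1 CPM, the 10 most like Ciita over the 12 mice were Chic2 (r = 0.891), Ikzf1 (0.881), Pdk1 (0.858), Il21r (0.854), Hvcn1 (0.844), Cd22 (0.842), Slc16a3 (0.839), Was (0.829), Smad2 (0.828) and Ddx42 (0.826). Ikzf1, Il21r, Hvcn1, Cd22 and Was are known from blood cells, and Cd22, a surface receptor of B cells, is also in the list of B cell genes to which H2-Ob is compared. M13_1 was the highest mouse for all 10, and their r ranged from 0.569 (Smad2) to 0.803 (Was) without it. Among members, H2-Ob ranked 117 in this order, Cd74 890, H2-Ab1 1357 and H2-Aa 6906. H2-Eb2 and H2-Oa were not in this order, since they did not reach a mean of 1 CPM over the 12 mice. This order rested on M13_1, without which the r was 0.328 for H2-Ob, 0.757 for Cd74, 0.761 for H2-Ab1 and 0.303 for H2-Aa. The mean of H2-Aa, H2-Ab1, H2-Eb1 and Cd74 had other neighbours, led by Itgal (r = 0.915), Il10ra (0.911), Itgb7 (0.900), Mpeg1 (0.890) and Cyth4 (0.887), of which Itgal and Itgb7 encode leukocyte integrin chains and Mpeg1 a pore-forming protein of macrophages. Their r was 0.898 or more without M13_1.

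Over all 45 pairs of members, the median r was 0.282, and 9 pairs passed 0.05 after adjustment over the 45, all positive. Over the 12 mice they fell into 3 blocks with no passing pair between blocks. The 45 pairs were not among the planned tests, and the blocks were read from these same values. The first block was H2-Aa, H2-Eb1 and H2-DMb1, with r = 0.929 (permutation p = 2e-05; rho = 0.958, p = 1e-05) between H2-Aa and H2-Eb1, 0.884 between H2-Aa and H2-DMb1 and 0.864 between H2-Eb1 and H2-DMb1. The second was H2-Ab1, Cd74 and H2-DMa, with r = 0.941 (permutation p = 1e-05, the smallest these permutations can give; rho = 0.965, p = 2e-05) between H2-Ab1 and Cd74, 0.884 between H2-Ab1 and H2-DMa and 0.798 between H2-DMa and Cd74. The third was H2-Ob, H2-Eb2 and H2-Oa, with r = 0.902 (permutation p = 0.00086; rho = 0.678, p = 0.0187) between H2-Eb2 and H2-Ob, 0.790 between H2-Oa and H2-Ob and 0.750 between H2-Eb2 and H2-Oa. By rho 5 of the 9 pairs passed the adjustment over the 45, the 3 of the first block and H2-Ab1 with Cd74 and with H2-DMa, and no pair of the third block did. These blocks cut across the molecules. The 2 chains of H2-A had r = 0.241 (adjusted permutation p = 0.831), and those of H2-DM r = 0.222 (adjusted permutation p = 0.833).

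The r between H2-Aa and H2-Eb1 was 0.919 in APC Min/+ and 0.975 in WT mice, and that between H2-Ab1 and Cd74 0.961 and 0.954. Without the 2 mice farthest from the median of the first gene they were 0.882 and 0.939. The third block was weaker in this respect, with r = 0.606 between H2-Eb2 and H2-Ob without M13_1 and M16_1 (permutation p = 0.0655). The separation of the first and the third block rested on M10_2 and M13_1. Without these libraries 17 of the 45 pairs passed the adjustment, and among them were 7 of the 9 pairs between the first and the third block. All 9 ran from r = 0.621 to 0.922, and the 7 that passed from 0.764 to 0.922. H2-Aa then had r = 0.922 with H2-Oa, 0.847 with H2-Eb2 and 0.837 with H2-Ob (adjusted permutation p = 0.00191, 0.0164 and 0.0164). H2-Eb2 with H2-Ob was at 0.677 and no longer passed (adjusted permutation p = 0.0782). The second block stayed at r = 0.890 or more inside. For H2-DMa and H2-DMb1 the r was 0.971 in APC Min/+ mice and -0.220 in WT mice, a difference that was not tested.

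**Figure D2:**
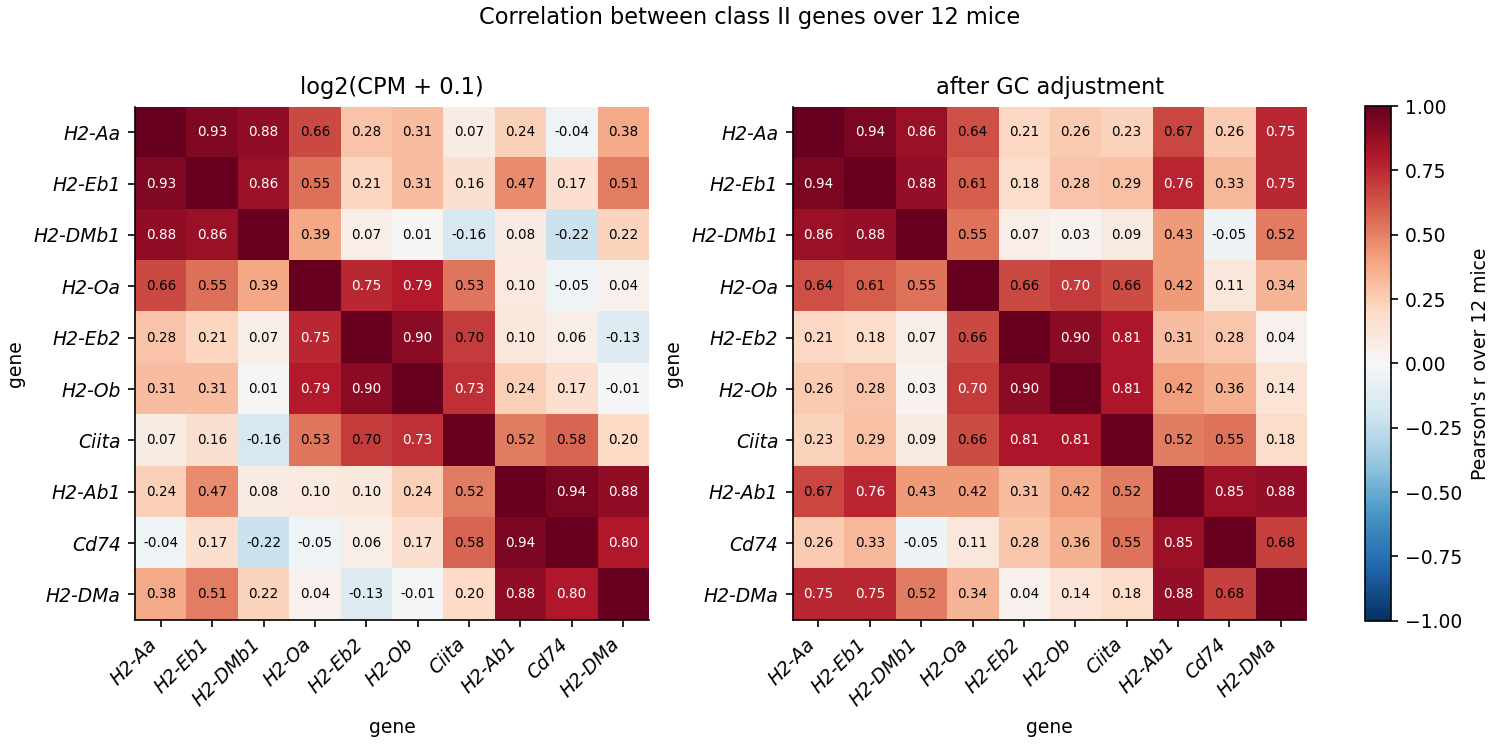
Pearson's r between each pair of class II genes over 12 mice, on log2(CPM + 0.1) on the left and after adjustment for GC content on the right, colored from -1 (blue) to 1 (red). On the left H2-Aa, H2-Eb1 and H2-DMb1, then H2-Oa, H2-Eb2 and H2-Ob, then H2-Ab1, Cd74 and H2-DMa stand out, and on the right the r of H2-Aa with H2-Ab1 is 0.67 in place of 0.24.

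The ratio of H2-Aa to H2-Ab1 in RPKM, a measure that does not depend on the scaling of the library, varied from 1.30 (M18_2b) to 3.88 (M17_1). On the log2 scale it was 0.69 ± 0.36 for APC Min/+ (SD, n = 6) and 1.05 ± 0.53 for WT (SD, n = 6), and the difference of -0.36 did not pass an exact two-sided permutation test (p = 0.195, adjusted p = 0.598 over 7 ratios, smallest possible p = 0.00216). The H2-Eb1 to H2-Ab1 ratio ran from 1.46 to 3.41, with a difference of -0.26 between genotypes (exact permutation p = 0.242). Cd74 to H2-Ab1 was tighter, from 1.93 to 2.85, and H2-DMa to H2-Ab1 from 0.119 to 0.175. The widest were the ratios of H2-O to H2-DM, with H2-Oa to H2-DMa from 0.0848 to 0.491 and H2-Ob to H2-DMb1 from 0.0879 to 0.997, the highest of both in M13_1. In log2 terms H2-Ob to H2-DMb1 was -2.41 ± 1.27 for APC Min/+ (SD, n = 6) and -2.73 ± 0.34 for WT (SD, n = 6) (exact permutation p = 0.734). Of the 7 ratios 0 differed between genotypes at an unadjusted p under 0.05.

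The spread of the first ratios moved with the base composition of the libraries. For each library a GC slope was computed, the change in log2 level, relative to the mean of all mice, per 10 percentage points of transcript GC content over 14783 genes. It ran from -0.389 in M17_1 to 0.188 in M10_2, and was 0.0392 ± 0.141 for APC Min/+ (SD, n = 6) and -0.0392 ± 0.212 for WT (SD, n = 6) (exact permutation p = 0.472). Over the 12 mice it had r = -0.917 (permutation p = 0.0001, adjusted p = 0.00136 over 17 relations; rho = -0.860, p = 0.00071) with the H2-Aa to H2-Ab1 ratio. The r was -0.806 (permutation p = 0.00420) without M17_1 and M18_2a, -0.876 within APC Min/+ and -0.946 within WT mice. For H2-Eb1 to H2-Ab1 it was -0.914 (permutation p = 0.00016, adjusted p = 0.00136; rho = -0.713, p = 0.0121, adjusted p = 0.0608). For Cd74 to H2-Ab1 it was 0.837 (permutation p = 0.00201, adjusted p = 0.0114; rho = 0.476, p = 0.124), and 0.513 (permutation p = 0.132) without M17_1 and M18_2a, so that relation rested on those mice.

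The longest GENCODE M21 transcripts of H2-Aa and H2-Ab1 have 46.5% and 57.3% GC, those of H2-Eb1 and Cd74 51.8% and 56.6%. That of H2-Aa has 3223 bases, where its deposited exonic length is 1874. The GC content used here need therefore not be that of the counted exons. Among single members, H2-DMb1, at 53.8%, had the largest r with the slope in size, -0.715 (permutation p = 0.0085, adjusted p = 0.0289). H2-Oa, at 56.5%, had r = -0.646 (permutation p = 0.0218, adjusted p = 0.0464), the sign of H2-Aa. Cd74, at 56.6%, had r = 0.658 (permutation p = 0.0199, adjusted p = 0.0464). By rho H2-DMb1, H2-Oa and Cd74 did not pass (adjusted permutation p = 0.252, 0.0608 and 0.284). The part of GC content in these values was not tested. M17_1, with the lowest slope, also had the highest share of counts on mitochondrial genes, 12.7%, where the range over all mice began at 4.35%. After each gene's level was corrected for the median deviation of genes of like GC content, an adjustment added after seeing the data, the SD of the log2 H2-Aa to H2-Ab1 ratio over 12 mice went from 0.47 to 0.30. The r between H2-Aa and H2-Ab1 went from 0.241 to 0.666, that between H2-DMa and H2-DMb1 from 0.222 to 0.517, and the median over the 45 pairs from 0.282 to 0.429, with a higher r in 31 pairs and a lower one in 14. Among those that went down were H2-Ab1 with Cd74, from 0.941 to 0.855, H2-DMa with Cd74, from 0.798 to 0.684, and H2-Eb2 with H2-Oa, from 0.750 to 0.662. The SD of the log2 Cd74 to H2-Ab1 ratio went from 0.16 to 0.18. The difference between genotypes in the H2-Aa to H2-Ab1 ratio was then -0.28 (exact permutation p = 0.104).

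**Figure D3:**
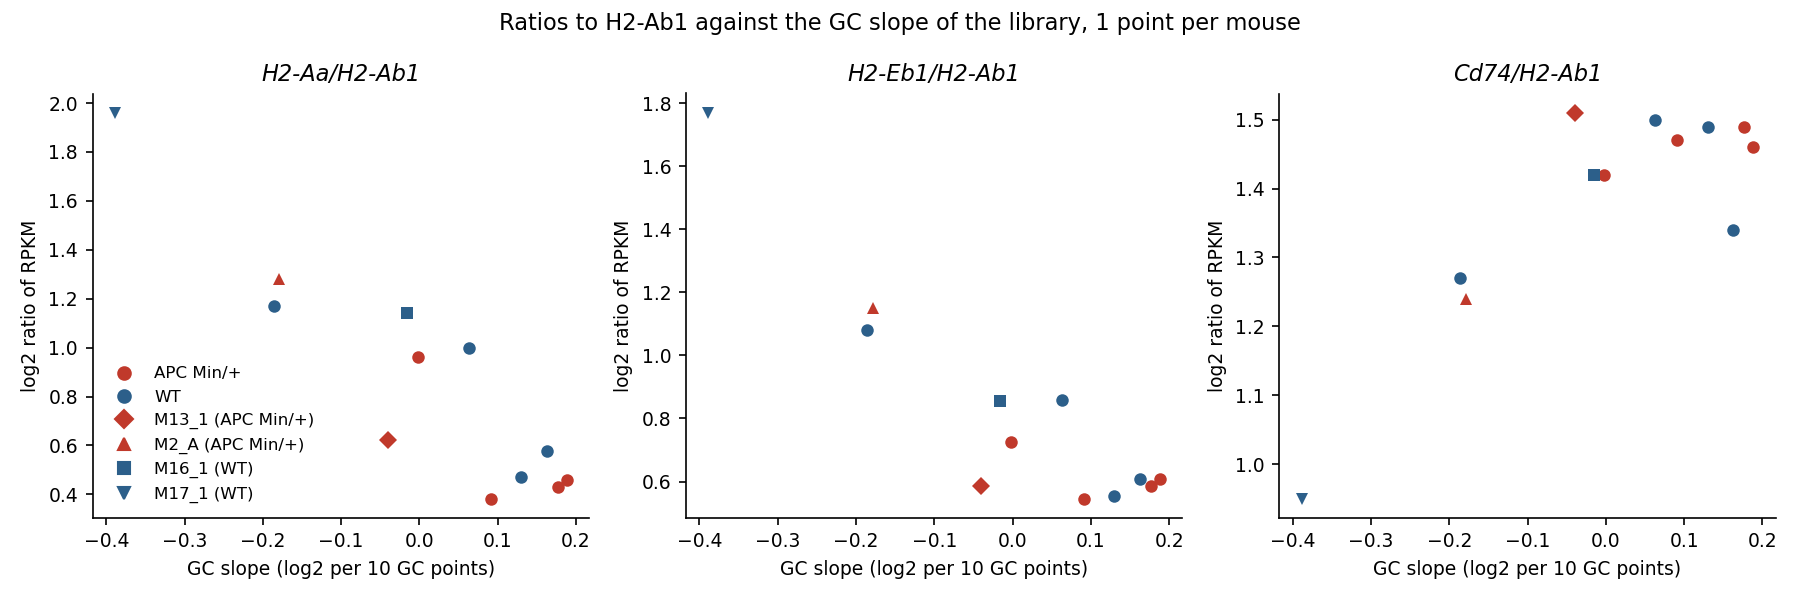
Log2 ratio of RPKM of H2-Aa, H2-Eb1 and Cd74 to H2-Ab1 against the GC slope of the library (log2 per 10 percentage points of GC), 1 point per mouse, red for APC Min/+ and blue for WT. M17_1 lies at a slope of -0.389 with an H2-Aa to H2-Ab1 ratio of 1.96 on the log2 scale, and the mice with slopes above 0.1 lie at the low end of the first 2 ratios.

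Class II genes are carried by several immune cell types, so the members were set beside 13 marker lists of 77 genes, each summarised per mouse as the mean log2(CPM + 0.1) of its detected genes. The B cell list (10 of 10 genes detected, among them Ms4a1, Cd79a, Cd79b, Pax5, Cr2, Fcer2a, Cd22, Blk and Fcrla) summed to 2.39 to 69.9 CPM in the APC Min/+ mice and 2.97 to 14.8 CPM in the WT mice. The value of 69.9 CPM was that of M13_1, and the other 11 mice lay between 2.39 and 14.8 CPM. In M13_1 Ms4a1 stood at 11.1 and Cr2 at 12.4 CPM, where no other mouse exceeded 1.84 and 1.11 CPM. Of the germinal center list 3 of 4 genes were detected, S1pr2 and Rgs13 among them, Mef2b was at 0 in all mice, and the sum was 8.95 to 15.2 CPM in APC Min/+ and 12.2 to 16.2 CPM in WT mice, with M13_1 not the highest.

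H2-Ob with the B cell list had the largest r among the 39 pairs of a list with Ciita, H2-Ab1 or H2-Ob, with r = 0.913 (permutation p = 0.00043, adjusted p = 0.0168; rho = 0.769, p = 0.00479), 0.680 (permutation p = 0.0351) without M13_1 and M16_1, and 0.971 in APC Min/+ and 0.672 in WT mice. It was the 1 pair of the 39 that passed the adjustment by r, and by rho it did not pass (adjusted permutation p = 0.187). Ciita had r = 0.761 with the same list (permutation p = 0.00779, adjusted p = 0.0697; rho = 0.685, p = 0.0166), and 0.233 (permutation p = 0.506) without M13_1 and M16_1. H2-Ab1 had r = 0.124 with it (permutation p = 0.725). In a second family of 91 pairs with the other 7 members, chosen after seeing the data, H2-Eb2 had r = 0.950 with the B cell list (permutation p = 0.0001, adjusted p = 0.00364; rho = 0.818, p = 0.00202), 0.802 without M13_1 and M16_1 and 0.845 without M10_2 and M13_1, and H2-Oa had 0.798 (permutation p = 0.00112, adjusted p = 0.0118; rho = 0.818, p = 0.00180). H2-Oa was at least as close to the pan-leukocyte gene Ptprc, with r = 0.841 (permutation p = 0.00106, adjusted p = 0.0118; rho = 0.818, p = 0.00172), and 0.856 without M16_1 and M17_1. How far the B cell transcripts account for the H2-O and H2-Eb2 levels was not tested.

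For H2-Eb1 and H2-Aa the largest coefficients over the 12 mice were with other lists. H2-Eb1 had r = 0.942 with the dendritic cell list (permutation p = 4e-05, adjusted p = 0.00364; rho = 0.930, p = 7e-05), 0.894 without M20_1 and M2_A and 0.928 within WT mice, and H2-Aa had 0.856 with it (permutation p = 0.00038, adjusted p = 0.00764; rho = 0.860, p = 0.00071). All 8 dendritic cell genes (Flt3, Zbtb46, Itgax, Xcr1, Clec9a, Cd209a, Ccr7 and Batf3) were detected, with sums of 11.0 to 22.4 CPM in APC Min/+ and 12.5 to 19.3 CPM in WT mice. H2-Aa also had r = 0.896 with the plasma cell list (permutation p = 0.00042, adjusted p = 0.00764; rho = 0.797, p = 0.00311) and 0.865 with the pan-leukocyte gene Ptprc (permutation p = 0.00012, adjusted p = 0.00364; rho = 0.846, p = 0.00097). These lists share the mice M2_A, M16_1 and M17_1 at their upper end, and were not separated further. The plasma cell genes did not all move together. Jchain, Igha, Mzb1 and Tnfrsf17 were highest in M2_A and M17_1, with Jchain at 748 and 772 CPM. Sdc1 was at 163 CPM in M2_A and lowest in M17_1, at 114 CPM, and Xbp1 ranged only from 180 to 237 CPM. With the B cell list the r of H2-Aa was 0.356 over the 12 mice (permutation p = 0.265) but 0.883 without M10_2 and M13_1 (permutation p = 0.00112). Without the same mice it was 0.753 for H2-Eb1 and 0.758 for H2-DMb1, beside 0.737 for H2-Ob, 0.809 for H2-Oa and 0.845 for H2-Eb2, so the contrast between the blocks in this list depended on M13_1 and M10_2. H2-DMa was closest to the macrophage list, with r = 0.747 (permutation p = 0.00403, adjusted p = 0.0293; rho = 0.846, p = 0.00095). That list (Adgre1, Csf1r, Cx3cr1, Cd68, Mertk, Fcgr1, C1qa and C1qb) summed to 134 to 267 CPM in APC Min/+ and 188 to 280 CPM in WT mice. Its genes did not all move together. Mertk was highest in M8_2 at 95.6 CPM and lowest in M10_2 at 53.7 CPM. In M2_A Mertk was at 62.0 CPM, whereas C1qa and C1qb were highest there, at 45.6 and 45.7 CPM.

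For Cd74 the dendritic and B cell lists gave r = 0.160 and 0.0863 (adjusted permutation p = 0.823 and 0.871), and the endothelial list 0.761 (adjusted permutation p = 0.0322; rho = 0.441, p = 0.154), which was 0.226 without M17_1 and M20_1. With the epithelial list H2-Eb2 had r = -0.736 (permutation p = 0.00538, adjusted p = 0.0326; rho = -0.524, p = 0.0840), and -0.455 without M10_2 and M13_1, the 2 mice with the lowest mean of this list. The list's genes did not move together there. Car1 was at 966 and 2539 CPM in M10_2 and M13_1 and at 14620 CPM or more elsewhere, whereas Cdh1 was highest in these mice, at 1490 and 1199 CPM. The list of distal colon genes had r = 0.735 with Ciita (permutation p = 0.00893, adjusted p = 0.0697; rho = 0.364, p = 0.245), and 0.147 without M10_2 and M13_1. M10_2, the other library with high Hoxb13, had 2.57 CPM of H2-Ob, 0.717 CPM of H2-Eb2 and 4.01 CPM of Ciita, inside the range of the WT mice for all 3.

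**Figure D4:**
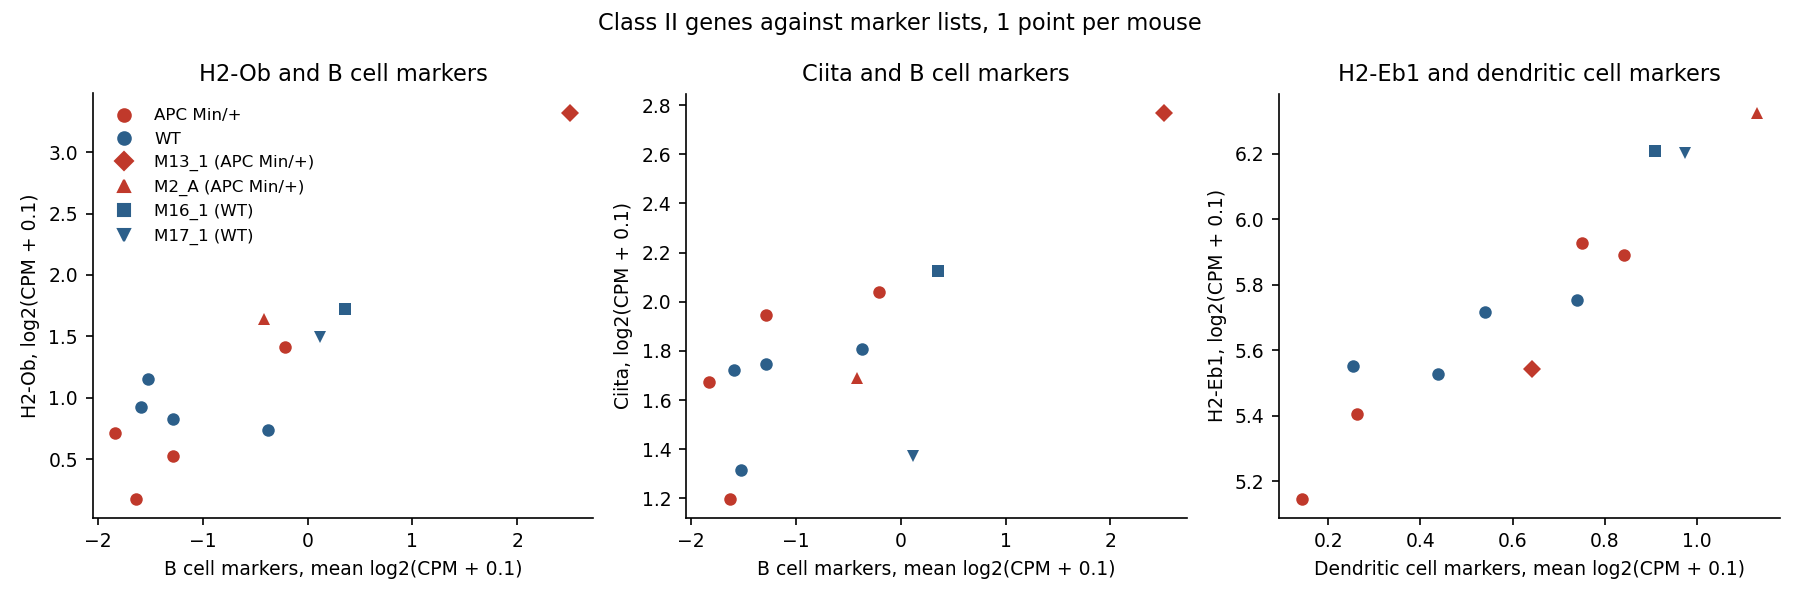
H2-Ob and Ciita against the B cell list and H2-Eb1 against the dendritic cell list, all as log2(CPM + 0.1), with the lists as the mean over their detected genes, 1 point per mouse, red for APC Min/+ and blue for WT. M13_1 stands alone at a B cell level of 2.51 in the first 2 panels, where all other mice are at 0.353 or less, and in the third panel no mouse stands alone.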

How the data were processed

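Total RNA from the proximal colon of 12 mice was sequenced in paired ends of 100 bp. The authors aligned reads with STAR (2.3.0 in the submitters' processing notes, which list GRCm38.p2), and deposited unnormalized featureCounts counts per gene with an exonic length. Annotation release, strand and multi-mapping settings are not given in the sources used here. Identifiers were matched to symbols in GENCODE M21 (37607 of 38924 genes). Genotypes were compared with edgeR (4.0.16) quasi-likelihood tests, TMM factors and Benjamini-Hochberg adjustment over the 20311 genes that reached 10 counts in 3 or more mice, all 12 mice in 1 fit without covariates. p-values measure the spread between single mice. CPM used TMM-scaled totals, and RPKM the deposited lengths. Correlations used log2(CPM + 0.1) with 100000 permutations (exact within genotypes), ratios log2(RPKM + 0.01) with exact tests over all regroupings. Alternatives were DESeq2 (1.42.0), edgeR's likelihood ratio test, RLE or total-count scaling, no filter, other pseudocounts, Spearman's rho, genotype means subtracted, each mouse left out, and M10_2 and M13_1 left out. GC adjustment (20 bins of genes with a mean of at least 1 CPM, of which 99.2% had a GC value), the GC slopes, the second family of marker lists and the adjusted pairs without M10_2 and M13_1 were added after seeing the data. The correlations over all pairs of members were not planned either, and their blocks were read from the same 12 mice. Scripts were tested on simulated data. Named genes were all members, from each pathway list the gene with the lowest p and defining partners (Rfx5, Irf1, Ifng, H2-DMb2, H2-Ea, Ctss, B2m, Nlrc5 and others), the 10 genes most like Ciita, the 5 most like the mean of H2-Aa, H2-Ab1, H2-Eb1 and Cd74, and Hoxb13 and Hoxd13. H2-Ea was looked up as H2-Ea-ps, its symbol in GENCODE M21. Some genes of the lists are not reported here by name. The members, lists and tests were chosen with earlier results of these data known.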

Additional observations from a re-analysis of the deposited data

Results flagged for a closer look

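A value was marked when 1 mouse of a group of 6 lay apart from the other 5 by more than Dixon's 95% critical value. Chance does this in about 1 of 20 groups if the values are normal. Of the 34 groups examined 7 were marked, all in APC Min/+ mice. The groups share the same mice and correlated genes, so 7 of 34 cannot be set against that rate. M13_1 accounted for 4 of the 7 marked groups. Its H2-Eb2 level of 3.18 CPM stood above 0.272 to 0.717 CPM in the other 5 APC Min/+ mice, its H2-Ob level of 9.88 CPM above 1.03 to 3.03 CPM, its log2 Ciita to H2-Ab1 ratio of -4.35 above -5.67 to -5.32, and its log2 H2-Ob to H2-DMb1 ratio of -0.005 above -3.51 to -2.34. M2_A accounted for the other 3. Its H2-Aa level of 140 CPM stood above 60.3 to 86.3 CPM, its log2 H2-Eb1 to H2-Ab1 ratio of 1.15 above 0.55 to 0.73, and its log2 Cd74 to H2-Ab1 ratio of 1.24 below 1.42 to 1.51. M13_1 also had the highest B cell list, and M2_A the lowest GC slope of the APC Min/+ mice. The part of either in these values was not tested.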

How the results depend on the processing

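No class II gene and no pathway gene was called under any of the 18 alternatives run. The number of genes called over the whole table was 0 in the edgeR quasi-likelihood fit, 27 by DESeq2 and 15 by edgeR's likelihood ratio test. The number of members correlated with Ciita was 0, 3 after GC adjustment (H2-Eb2, H2-Oa and H2-Ob), and 0 to 2 when 1 mouse was left out, 2 without M13_1 and 2 without M17_1. The GC-adjusted correlations with Ciita were not run without M13_1. Before GC adjustment, the r of H2-Eb2, H2-Oa and H2-Ob with Ciita was 0.263, 0.0728 and 0.0176 without M13_1 and M20_1. No difference whose sign turned was past the test's threshold. Without M10_2 and M13_1 the log2 fold change turned to -0.252 for H2-Eb2, -0.0275 for H2-Oa, -0.331 for H2-Ob, -0.0587 for Ciita, -0.251 for H2-DMb2, -0.0418 for Ctss, -0.0218 for Rfxank and -0.0104 for Ifngr1. Without these mice the log2 ratio difference turned to -0.133 for Ciita to H2-Ab1, 0.00286 for H2-DMa to H2-Ab1, -0.219 for H2-Oa to H2-DMa and -0.305 for H2-Ob to H2-DMb1. The r of H2-DMa with Ciita ran from 0.0689 to 0.624 with 1 mouse left out, the highest without M13_1. The r of H2-DMb1 with Ciita became 0.231 without M10_2 and M13_1, 0.049 as Spearman's rho and 0.0863 after GC adjustment. With 1 mouse left out in turn, the log2 fold change ran from -0.225 to 0.00265 for H2-Eb1, -0.0485 to 1.18 for H2-Eb2, -0.0509 to 0.132 for H2-DMa, -0.115 to 0.379 for H2-Oa, -0.197 to 0.756 for H2-Ob, -0.141 to 0.451 for H2-DMb2 and -0.0121 to 0.0722 for Ctss. The r with Ciita then ran from -0.0819 to 0.303 for H2-Aa, -0.104 to 0.464 for H2-Eb1 and -0.307 to 0.188 for H2-DMb1, and the ratio difference from -0.116 to 0.148 for Ciita to H2-Ab1, -0.279 to 0.186 for H2-Oa to H2-DMa and -0.167 to 0.534 for H2-Ob to H2-DMb1. The cause of these changes was not tested. Depth limits H2-Eb2 most, with as few as 18 counts in a mouse. No paired analysis was possible because the replicate numbers follow accession order and mark no shared animal or batch.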
